A study of Sus scrofa with 15 samples.

Results

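Complement is a set of plasma and tissue proteins that mark microbes, immune complexes and dying cells for removal. C1q, which is built of A, B and C chains, recognises the target and opens the classical pathway. Factor D and factor B drive the alternative pathway, and all routes meet at C3, whose fragments label the target and signal through receptors such as C3AR1. In fat, adipocytes are a known source of factor D, also called adipsin, and tissue macrophages are the known source of C1q.

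The genes described here are 9 complement genes of the backfat transcriptome of Iberian pigs: C1QA, C1QB, C1QC, C3, CFD, CFB, C3AR1, C7 and SERPING1. Each symbol was matched to the 1 Ensembl gene that carried it in a reference table (for example C3 to ENSSSCG00000013551 and C1QB to ENSSSCG00000033512), out of 30477 genes counted in each library. Of the 9 genes, 8 passed the filter on low counts that left 14918 genes for testing, and CFD was listed at 0 in every library.

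RNA was sequenced from biopsies of subcutaneous backfat of 15 Iberian pigs, 5 from each of 3 growing-period diets. The control (C) pigs received a compound feed. The dry olive pulp (DOP) pigs received a compound feed that contained this by-product of oil extraction. The wet crude olive cake (WCOC) pigs received their own compound feed together with a silage of olive cake and barley straw. All pigs were about a year old at biopsy and had been on their diet for the whole growing period. The compound feeds were rationed, at a higher share of free energy intake for C than for DOP and WCOC, and the silage was offered freely. Ration of compound feed and by-product therefore cannot be told apart. Each diet was fed in 1 pen, so that pen and diet cannot be told apart. The 5 pigs of a diet were chosen from a larger group by the quantity and quality of their RNA. Each library came from a separate pig, so the p-values measure the spread between pigs of 1 pen. In bulk tissue, fewer cells of a type and less RNA per cell cannot be told apart.

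Between 22373715 and 34745218 counts fell on genes in a library. The summed adipocyte markers, led by ADIPOQ, reached 12570 to 22070 CPM (counts scaled to library size with the TMM factors of edgeR) in the 15 libraries, so that the defining markers of fat were present. Skeletal muscle markers, led by ACTA1, stood apart in C 1 (1871 CPM), C 3 (3152 CPM), DOP 2 (9157 CPM), DOP 4 (5164 CPM) and DOP 5 (40650 CPM), against at most 627 CPM in the other libraries, and red blood cell markers, led by HBB, stood apart in DOP 2 (15780 CPM). Epidermis markers, led by KRT10, were highest in WCOC 5 (120.9 CPM), C 3 (35.45 CPM) and WCOC 2 (21.3 CPM), against at most 14.62 CPM in the other libraries. From the run identifiers, all DOP libraries and C 5 were run on one flow cell (B) and the other libraries on another (A). Within flow cell A, C 1 to C 4 and WCOC 1 to WCOC 3 were in lane 2 and WCOC 4 and WCOC 5 in lane 8. Lane was not tested. DOP and WCOC therefore cannot be told apart from flow cells B and A, and in DOP vs. C only C 5 shares a flow cell with the DOP libraries.

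On the Sscrofa11.1 assembly the 3 C1q chain genes lay side by side on the + strand of chromosome 6, in the order C1QA, C1QC and C1QB, within 19818 bp. C1QA spanned chr6:80586259-80589213, C1QC chr6:80592591-80597464 and C1QB chr6:80601680-80606076, each with 3 exons, and the gaps between them were 3377 and 4215 bp. C3 spanned chr2:72431470-72471622 on the + strand with 41 exons. The 250 bases before the start of these 4 genes in the RefSeq annotation are shown 5′ to 3′. The 4 genes were chosen because C3 passed the diet tests described below and the C1q chains moved together. The C3 calls depended on single libraries. Capitals mark matches to 4 motifs searched on both strands. GAGGAA is an ETS core with the flank preferred by PU.1, a myeloid factor. TTNNGNAAT is the motif of the C/EBP factors. AANNGAAA is the core of the interferon regulatory element. TATAAA is the core promoter box bound by the general factor TBP.
C3 promoter (chr2:72431220-72431469, + strand): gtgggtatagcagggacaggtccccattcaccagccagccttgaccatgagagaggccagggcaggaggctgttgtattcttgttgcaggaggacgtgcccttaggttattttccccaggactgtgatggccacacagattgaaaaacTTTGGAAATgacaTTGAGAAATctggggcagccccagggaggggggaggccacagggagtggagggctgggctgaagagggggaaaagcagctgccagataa
C1QA promoter (chr6:80586009-80586258, + strand): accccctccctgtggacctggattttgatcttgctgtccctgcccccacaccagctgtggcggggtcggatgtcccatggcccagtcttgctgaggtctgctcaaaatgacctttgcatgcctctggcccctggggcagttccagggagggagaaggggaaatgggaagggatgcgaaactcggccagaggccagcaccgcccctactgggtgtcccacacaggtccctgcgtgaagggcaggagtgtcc
C1QC promoter (chr6:80592341-80592590, + strand): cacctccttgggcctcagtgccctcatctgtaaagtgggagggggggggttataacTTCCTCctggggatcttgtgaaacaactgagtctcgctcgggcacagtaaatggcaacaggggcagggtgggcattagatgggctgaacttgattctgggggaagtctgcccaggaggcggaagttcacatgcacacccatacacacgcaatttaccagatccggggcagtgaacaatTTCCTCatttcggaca
C1QB promoter (chr6:80601430-80601679, + strand): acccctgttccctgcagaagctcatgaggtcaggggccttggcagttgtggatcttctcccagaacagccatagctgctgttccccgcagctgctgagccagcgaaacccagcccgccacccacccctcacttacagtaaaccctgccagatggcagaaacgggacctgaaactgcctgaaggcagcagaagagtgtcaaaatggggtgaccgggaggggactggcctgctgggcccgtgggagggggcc

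The C3 window held 2 matches to the C/EBP motif, which start 102 and 89 bases before the gene, and 8.92% of 19556 promoters of this length held this motif. The C1QC window held 2 matches to GAGGAA on the opposite strand, 194 and 16 bases before the gene (22% of promoters). The C1QA and C1QB windows held no match to these 4 motifs, which were settled after the windows had been searched (an NF-kB motif that is not shown matched in C1QB), and TATAAA (9.77% of promoters) and AANNGAAA (20.8% of promoters) were in none of the 4 windows. A match is a description of the letters and not a binding site.

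Divided by the length of the RefSeq transcript, SERPING1 was the most abundant of the genes. SERPING1 encodes the C1 inhibitor, which blocks the proteases of the classical and lectin pathways. It reached 243 ± 52.3 CPM per kb (SD, n = 15). The C1q chains followed at 41.8 ± 22.1 (C1QB), 36.4 ± 17.2 (C1QC) and 35.8 ± 17.8 CPM per kb (C1QA). Within single libraries C1QB over C1QA was 1.17 ± 0.128 (SD, n = 15, range 0.923 to 1.37), and differences between the chains were not tested. C3 was far lower at 3.17 ± 2.26 CPM per kb. CFB (1.85 ± 1.15), C7 (1.48 ± 0.828) and C3AR1 (0.805 ± 0.498 CPM per kb) had lower means still. From C3 to C3AR1 the spreads over pigs of neighbours in this order overlapped, and their differences within libraries were not tested. These SDs run over all 15 libraries and so include differences between the diets.

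**Figure D1:**
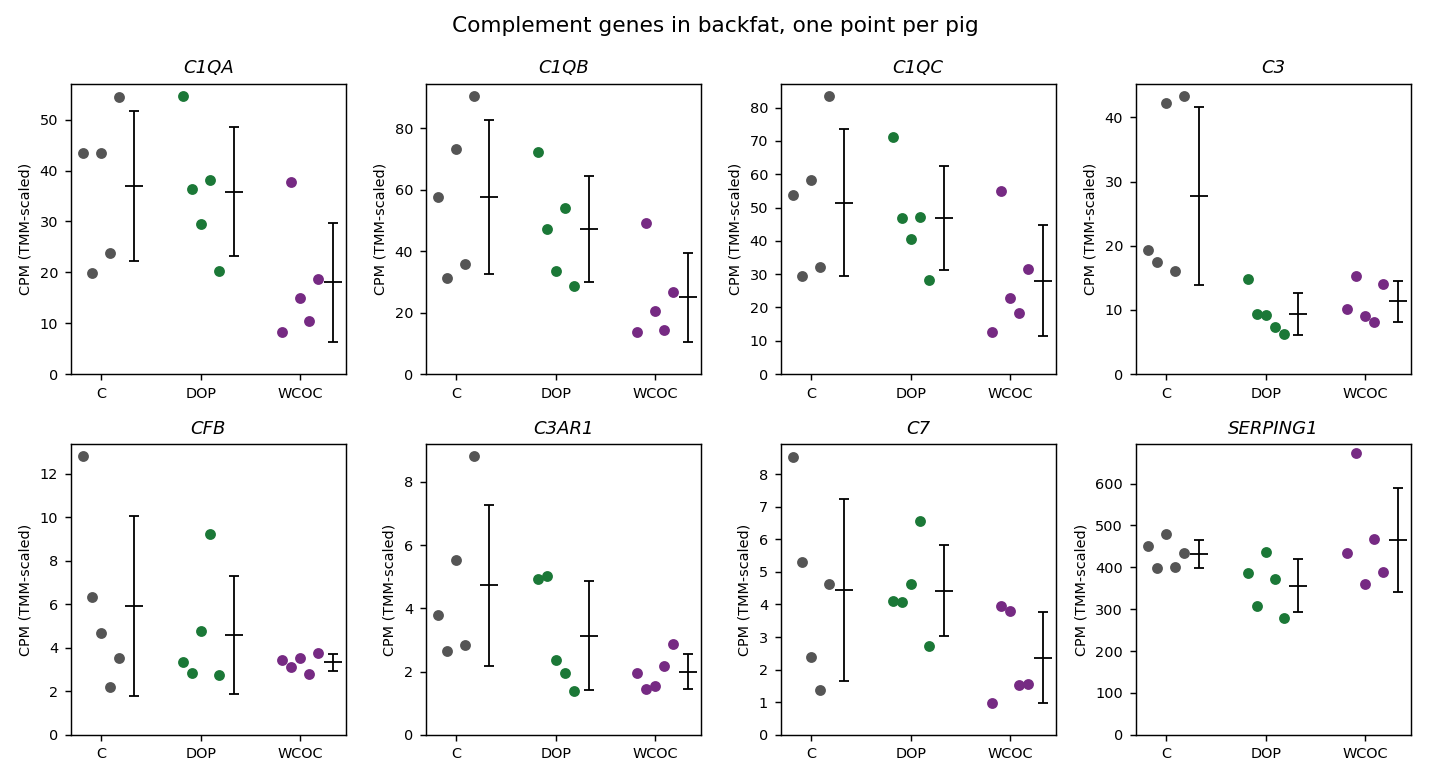
TMM-scaled CPM of the 8 tested complement genes in each pig by diet (C, DOP and WCOC), with the mean and SD of the 5 pigs beside the points. The y axis of each panel starts at 0. For C3 every C pig lies above every DOP and WCOC pig, with C 3 and C 5 far above the other C pigs, and for the C1q chains WCOC 2 lies above the other WCOC pigs.

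The question of the diet comparisons was whether feeding an olive by-product changed the expression of these genes in fat. A gene was called a differentially expressed gene (DEG) when the edgeR quasi-likelihood test gave an adjusted p (Benjamini-Hochberg over the 14918 tested genes) under 0.05 and the log2 fold change (log2FC) was at least 0.58 in size. C3, the protein on which all complement pathways converge, was the 1 complement gene of the 9 that was called, and it fell under both olive diets. The C1q chains, C3AR1, CFB and C7 had lower means under WCOC and did not pass the test, nor did SERPING1, whose mean under WCOC was a little higher. Both olive diets were compared with the same 5 control libraries, so the comparisons are not independent of each other.

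C3 stood at 19.3, 17.5, 42.3, 16.1 and 43.4 CPM in C 1 to C 5. It stood at 14.8, 9.36, 9.26, 7.29 and 6.31 CPM in DOP 1 to DOP 5. It stood at 10.1, 15.3, 9.08, 8.07 and 14.1 CPM in WCOC 1 to WCOC 5. The lowest C pig lay above the highest pig of either olive diet, and 2 C pigs, C 3 and C 5, had more than the other 3 by a wide gap. The means were 27.7 ± 13.9 CPM in C, 9.40 ± 3.28 in DOP and 11.3 ± 3.20 in WCOC (SD, n = 5). C3 fell in DOP vs. C with a log2FC of -1.56 (SE 0.32, 95% confidence interval -2.25 to -0.87, edgeR adjusted p = 0.0421), a level 2.95-fold lower. In WCOC vs. C it fell with a log2FC of -1.29 (SE 0.32, interval -1.98 to -0.61, edgeR adjusted p = 0.0225), a level 2.45-fold lower.

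In DOP vs. C, 1 of the 8 tested complement genes was called, and 0.764% of all tested genes were called. In WCOC vs. C, 1 of 8 was called, beside 6.25% of all tested genes. C3 was also the 1 gene of the 8 whose diets did not overlap, in DOP vs. C (3.47% of all tested genes) and in WCOC vs. C (7.62%), and between the olive diets 0 of the 8 did so (8.9%). Between the olive diets C3 did not pass the test (WCOC vs. DOP, log2FC 0.27, interval -0.41 to 0.95, edgeR adjusted p = 0.629).

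The C3 calls were lost when any 1 of several libraries was left out. Over all settings tried, C3 was called in 12 of 24 for DOP vs. C and in 16 of 25 for WCOC vs. C. With DOP the call was lost without C 3 (log2FC -1.36, adjusted p = 0.1145) and without C 5 (-1.34, 0.0957). It was also lost without DOP 2, DOP 3, DOP 4 or DOP 5 and without WCOC 3 or WCOC 5, which belong to the joint fit only, while the log2FC stayed between -1.79 and -1.34 with any library of this comparison left out. In WCOC vs. C the call was lost without C 3 (-1.10, 0.0620), C 5 (-1.07, 0.0564), WCOC 1, WCOC 3 or WCOC 4, with the log2FC between -1.44 and -1.07.

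Flow cell A held 4 C and 5 WCOC libraries, of which WCOC 4 and WCOC 5 ran in another lane than the rest. Within it the log2FC of C3 in WCOC vs. C was -1.08 and the call was lost (edgeR adjusted p = 0.0697). With flow cell as a covariate it was -1.07 in WCOC vs. C (adjusted p = 0.0560) and -2.21 in DOP vs. C (adjusted p = 0.0287), where C 5 alone carries the comparison of diets within a flow cell. In the 10 libraries under 1000 CPM of skeletal muscle markers (3 C, 2 DOP and 5 WCOC), an alternative chosen after the data were seen, C3 had a log2FC of -1.11 in DOP vs. C (adjusted p = 0.853) and of -1.19 in WCOC vs. C (adjusted p = 0.0890), and neither was called.

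**Figure D2:**
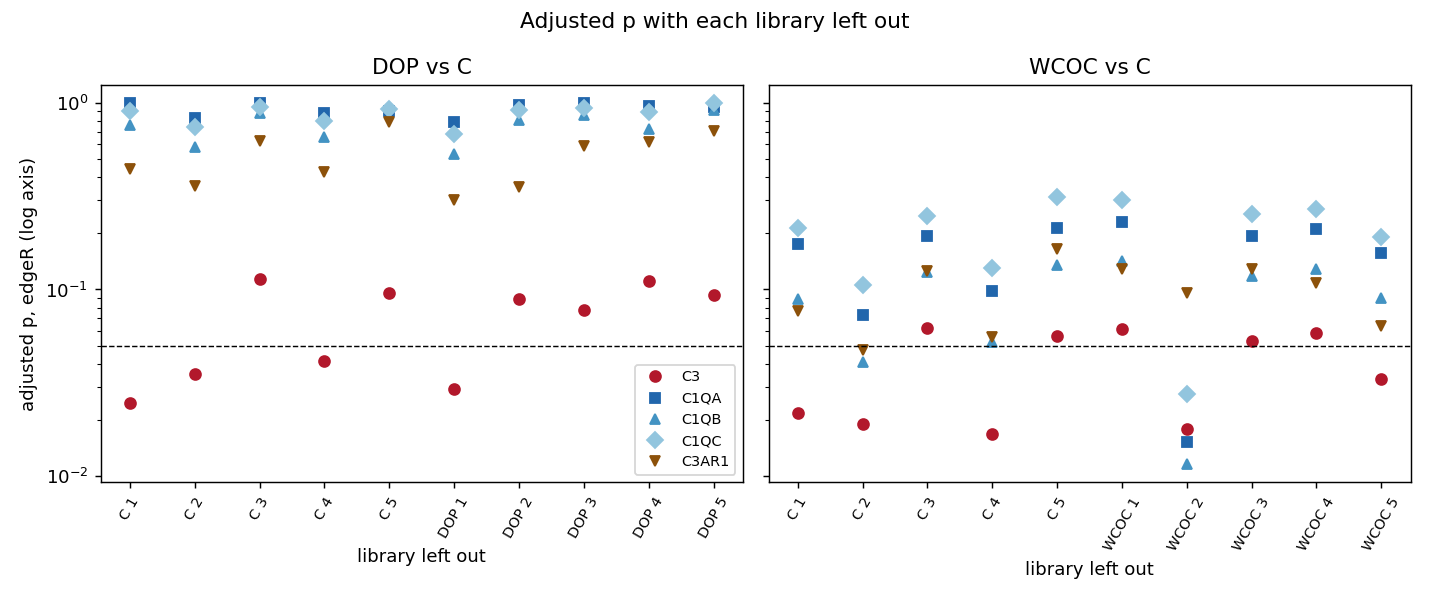
Adjusted p of edgeR on a log axis when 1 library is left out, for C3, the C1q chains and C3AR1 in DOP vs. C (left) and WCOC vs. C (right). The broken line is 0.05. Each panel shows only the libraries of its own 2 diets left out. C3 crosses the line in both panels. In WCOC vs. C the 3 C1q chains drop below it without WCOC 2, as do C1QB and C3AR1 without C 2.

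C1QA, C1QB and C1QC encode the chains of C1q, the recognition unit of the classical pathway. C1QB stood at 57.8, 31.2, 73.2, 35.8 and 90.5 CPM in C 1 to C 5. It stood at 72.1, 47.3, 33.4, 54.2 and 28.8 CPM in DOP 1 to DOP 5. It stood at 13.7, 49.3, 20.5, 14.5 and 26.8 CPM in WCOC 1 to WCOC 5. Of the WCOC pigs 4 were below every C and DOP pig, and WCOC 2 alone stood inside the range of both. With the control feed the mean was 57.7 ± 24.99 CPM, with DOP 47.2 ± 17.3 CPM and with WCOC 24.96 ± 14.6 CPM (SD, n = 5).

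C1QA stood at 43.5, 19.8, 43.5, 23.8 and 54.5 CPM in C 1 to C 5, at 54.7, 36.5, 29.5, 38.1 and 20.4 CPM in DOP 1 to DOP 5, and at 8.31, 37.7, 14.99, 10.4 and 18.7 CPM in WCOC 1 to WCOC 5. C1QC stood at 53.8, 29.6, 58.2, 32.2 and 83.6 CPM in C 1 to C 5, at 71.2, 46.8, 40.5, 47.2 and 28.4 CPM in DOP 1 to DOP 5, and at 12.7, 55.0, 22.9, 18.3 and 31.5 CPM in WCOC 1 to WCOC 5. WCOC 2 was again far above the other WCOC pigs, and the other 4 were below every C and DOP pig for C1QA, while for C1QC WCOC 5 also reached into their range.

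With all 15 libraries none of the chains passed the edgeR test in any comparison. In WCOC vs. C the log2FC was -1.21 for C1QB (interval -2.03 to -0.40, edgeR adjusted p = 0.0580), -1.04 for C1QA (-1.88 to -0.20, 0.110) and -0.88 for C1QC (-1.67 to -0.08, 0.152). In WCOC vs. DOP it was -0.92, -0.99 and -0.74, with adjusted p of 0.129, 0.113 and 0.215. For DOP against C it was -0.29 for C1QB (interval -1.09 to 0.51), -0.05 for C1QA (-0.88 to 0.78) and -0.14 for C1QC (-0.93 to 0.65).

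Leaving out WCOC 2 changed these results. Without it all 3 chains were called lower in WCOC vs. C, with log2FC of -1.62 for C1QB (adjusted p = 0.0116), -1.50 for C1QA (0.0152) and -1.28 for C1QC (0.0276). Without it the chains were also called lower in WCOC vs. DOP (log2FC -1.32, -1.45 and -1.13). C1QB was also called lower in WCOC vs. C without C 2 (log2FC -1.37, adjusted p = 0.0411). DESeq2 on all 15 libraries called C3, C1QA, C1QB and C3AR1 lower in WCOC vs. C and C1QA in WCOC vs. DOP. limma-voom called C3 and C1QB in WCOC vs. C and no gene of the 8 in the other comparisons. The share of all tested genes called by these tools or without WCOC 2 is not given here. Their counts therefore cannot be read as a result about complement genes.

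**Figure D3:**
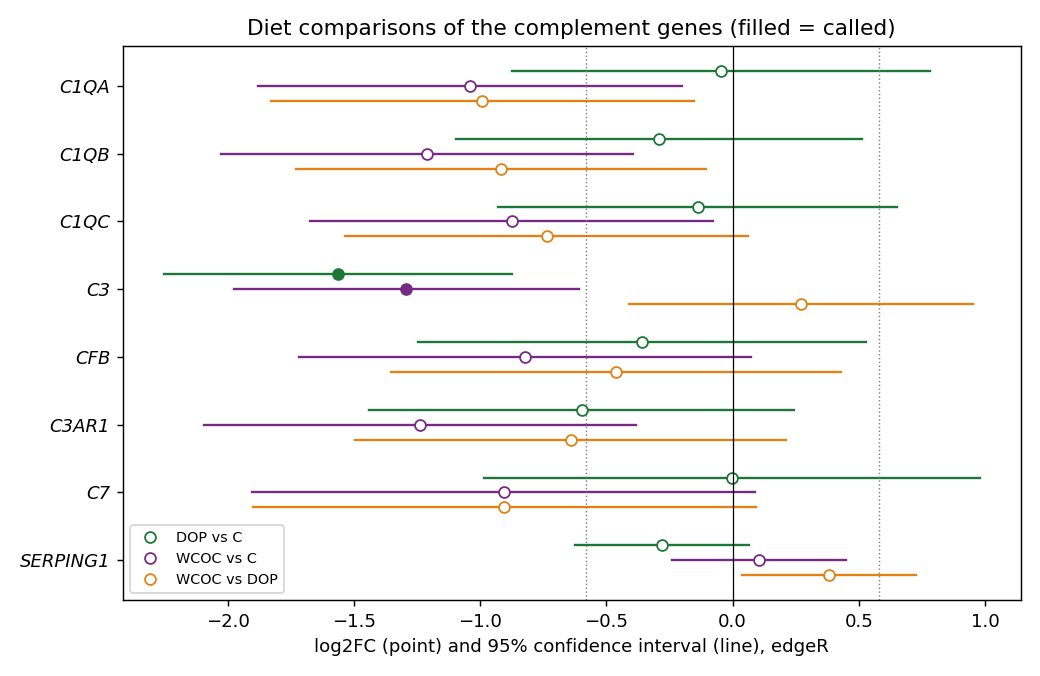
log2FC of the 8 tested complement genes from edgeR for each olive diet against C and for WCOC against DOP, with the 95% confidence interval as a line. Filled points were called, dotted lines mark a log2FC of 0.58 in either direction. C3 holds the 2 filled points, and the WCOC vs. C intervals of the C1q chains and C3AR1 lie below 0 without being called.

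C3AR1 (chr5:63088778-63098750, - strand), the receptor of the C3a fragment on myeloid cells, stood at 3.78, 2.65, 5.54, 2.84 and 8.81 CPM in C 1 to C 5. It stood at 4.94, 5.02, 2.38, 1.95 and 1.39 CPM in DOP 1 to DOP 5. It stood at 1.96, 1.46, 1.53, 2.19 and 2.86 CPM in WCOC 1 to WCOC 5. The WCOC pigs were low with little spread and only WCOC 5 reached into the range of C. The log2FC was -1.24 in WCOC vs. C (interval -2.09 to -0.38, edgeR adjusted p = 0.0636) and -0.60 in DOP vs. C (-1.44 to 0.24, 0.468), and neither was called. The WCOC vs. C difference was called without C 2 (adjusted p = 0.0477), without DOP 5 (0.0451) and by DESeq2.

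CFB, the zymogen that forms the alternative-pathway convertase with C3b, stood at 12.8, 6.32, 4.68, 2.22 and 3.55 CPM in C 1 to C 5. It ranged from 2.75 to 9.24 CPM in DOP, highest in DOP 4, and from 2.80 to 3.78 CPM in WCOC. The high C mean came from C 1, and the diets overlapped. Its log2FC was -0.82 in WCOC vs. C (interval -1.72 to 0.07) and -0.36 in DOP vs. C (-1.25 to 0.53). CFB (chr7:24034077-24040523, + strand) lies 2 bp from NELFE and 35 bp from C2, so that the assignment of reads at its ends is uncertain.

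C7 (chr16:25846860-25902707, + strand), a subunit of the membrane attack complex, stood at 8.53, 5.30, 2.39, 1.36 and 4.64 CPM in C 1 to C 5. C 1 and C 4 lay far apart, and the diets overlapped. It ranged from 2.72 to 6.57 CPM in DOP and from 0.982 to 3.97 CPM in WCOC. The log2FC was -0.91 in WCOC vs. C (interval -1.90 to 0.09, edgeR adjusted p = 0.231), -0.90 in WCOC vs. DOP and -0.003 in DOP vs. C (-0.98 to 0.98). Between 30 and 175 reads per library stood behind these C7 values.

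SERPING1 (chr2:13324160-13338826, - strand) stood at 451, 398, 479, 401 and 433 CPM in C 1 to C 5, at 387, 307, 436, 373 and 279 CPM in DOP 1 to DOP 5, and at 433, 674, 360, 468 and 389 CPM in WCOC 1 to WCOC 5. The diets overlapped, and WCOC 2 was the highest pig, as it was for the C1q chains within WCOC. The log2FC was 0.10 in WCOC vs. C (interval -0.24 to 0.45, edgeR adjusted p = 0.722), -0.28 in DOP vs. C (-0.62 to 0.07, 0.394) and 0.38 in WCOC vs. DOP (0.04 to 0.73, 0.135).

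CFD, the gene of factor D, was listed at 0 in all 15 libraries, of 423067086 counts on genes in total. A count of 0 allows up to 3 counts, which is 0.0885 to 0.147 CPM in a library, for counting error only. Of 14864 genes with a symbol, 782 (5.26%) were listed at 0 in every library, among them CCT2, TXN2, PSMD13, HARS2 and TALDO1, genes that most cells use, which were chosen after their values were seen. The 0 is therefore given only as the listed value, and no fold or test is given for CFD. CFD (chr2:77509792-77511988, - strand) lies wholly inside the span of MED16 on the opposite strand, and 0 of its 1115 exon bases lie in a MED16 exon. MED16 was counted at 55.7 ± 3.02 CPM in C, 60.6 ± 3.79 in DOP and 61.9 ± 3.18 in WCOC (SD, n = 5).

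Of the 8 tested genes, 8 had a log2FC below 0 in DOP vs. C (47.8% of all tested genes), 7 in WCOC vs. C (49.4%) and 6 in WCOC vs. DOP (49.9%). The median log2FC of the 8 was -0.29, -0.97 and -0.69 in these comparisons, against 0.01, 0.00433 and 0.000668 over all tested genes. The study had selected C3 for both olive diets and the C1q chains and C7 for WCOC on these samples. These directions and medians are therefore not independent evidence. An unadjusted p under 0.05 was reached by 1 of 8 in DOP vs. C (17.6% of all tested genes), by 5 in WCOC vs. C (26.4%) and by 3 in WCOC vs. DOP (28.1%). In WCOC vs. DOP 0 of the 8 were called by edgeR, 1 by DESeq2 and 0 by limma-voom, beside 7.76% of all tested genes in edgeR.

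The C1q chains rose and fell together from pig to pig. Over the 15 libraries, taken as deviations from the mean of each diet on the log2 CPM scale, Pearson's r was 0.98 for C1QA with C1QB, 0.99 for C1QA with C1QC and 0.97 for C1QB with C1QC (Spearman's rho 0.98, 0.98 and 0.98). For each the permutation p was 1e-05, the smallest that 100000 permutations within diets can give, and 9.33e-05 after adjustment over the 28 pairs of genes. Without the 2 libraries farthest from the median r stayed between 0.96 and 0.98, and within the 9 libraries of flow cell A between 0.98 and 0.99. Flow cell B held 1 diet beyond C 5 and was too small for a value. Points of a pair share their library and its depth.

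The ratio between chains varied less than their levels. Per kb, C1QC over C1QA was 1.02 ± 0.0889 (SD, n = 5) in the C pigs (0.904 to 1.12), 0.962 ± 0.0468 with DOP (0.904 to 1.02) and 1.16 ± 0.0910 with WCOC (1.06 to 1.28). Across all 15 libraries this ratio ran from 0.904 to 1.28, while C1QA itself ran from 8.31 to 54.7 CPM. C1QB over C1QA averaged 1.27 ± 0.116 with the control feed, 1.08 ± 0.0961 with DOP and 1.17 ± 0.109 with WCOC. Differences in these ratios between diets were not tested.

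C3 followed the C1q chains less closely. Its r was 0.81 with C1QB (rho 0.78, adjusted permutation p = 0.00655 and 0.0129), 0.79 with C1QC and 0.75 with C1QA, and 0.77 with C1QB without C 3 and C 5. Within the 9 libraries of flow cell A r of C3 was 0.79 with C1QB, 0.69 with C1QC and 0.68 with C1QA. The unadjusted permutation p of these r was 0.00472, 0.0192 and 0.0287. There rho was 0.65, 0.63 and 0.63, with unadjusted permutation p of 0.0646, 0.0877 and 0.0877. C3 and C3AR1 had an r of 0.74 (rho 0.75, adjusted permutation p = 0.0230 and 0.0246), but without C 3 and C 5 r was 0.66 (permutation p = 0.0512) and within flow cell A it was 0.56, so that this relation rests in part on these libraries. CFB and C7 had an r of 0.66 (adjusted permutation p = 0.0313), which was 0.50 without C 1 and DOP 4, and their rho of 0.59 did not pass adjustment (0.0903). The remaining pairs did not pass. Among them, picked after their values were seen, C3AR1 had an r of 0.46 to 0.51 with the C1q chains. Without the 2 libraries farthest from the median, WCOC 2 always among them, r was 0.68 to 0.82. Within flow cell A it was 0.13 to 0.20.

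**Figure D4:**
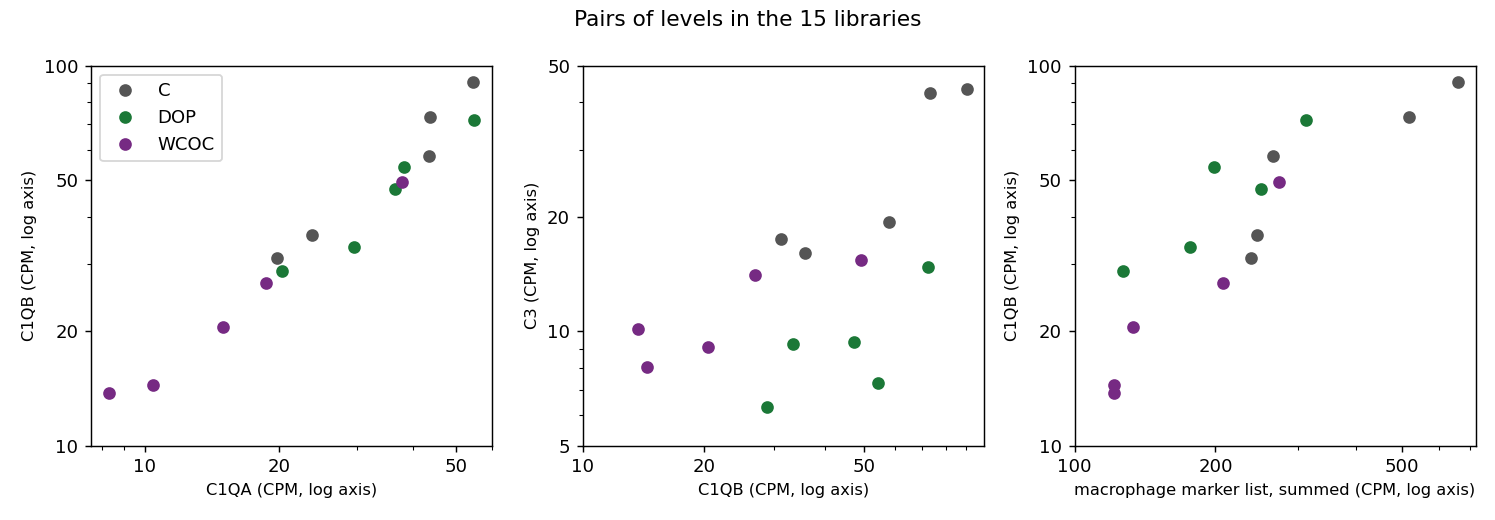
CPM of 3 pairs of measures in the 15 libraries on log axes, coloured by diet: C1QB against C1QA, C3 against C1QB, and C1QB against the summed macrophage markers. C1QA and C1QB lie on one line across all diets, while at a given C1QB level the C pigs have more C3 than the DOP pigs.

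The genes whose levels were most like those of C3 over the 15 libraries, among 11133 genes searched, were LAT2 (Spearman's rho 0.95), LCP1 (0.95) and NFAM1 (0.94). C3AR1 was much like CD53 (0.90) and DHRS9 (0.90). Beyond the other chains, C1QA was most like MRC1 (0.93), C1QB most like PTMA (0.95) and C1QC most like C4BPA (0.96). CFB was most like CTSC (0.79) and PLEKHM1 (0.78), and C7 most like TMEM184C (0.85), SAT1 (0.84) and CYP51A1 (0.84). SERPING1 was most like SCAMP2 (0.88), MFSD5 (0.88) and GIPC1 (0.87). These values are descriptions over 15 libraries of 3 diets.

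Macrophage markers were highest in some of the libraries that were highest for C3 or C1q. Their summed level, led by CSF1R, was 239 to 660 CPM in C, 127 to 312 CPM in DOP and 122 to 273 CPM in WCOC. C 3 (519 CPM) and C 5 (660 CPM), the C pigs highest for C3, were also the highest for the markers, and WCOC 2 (273 CPM) was the highest of the WCOC pigs. In WCOC vs. C 12 of 12 markers were lower (49.4% of all tested genes) with a median log2FC of -1.20, and 5 were called lower (CD68, CD163, MRC1, MSR1 and AIF1), beside 3.93% of all tested genes. With DOP 11 of 12 were lower than in C (47.8% of all tested genes) with a median log2FC of -1.17, and MSR1 was called, beside 0.55% of all tested genes. Between the olive diets 7 of 12 were lower in WCOC and 5 higher, with a median of -0.09, and CD163 was called lower (5.11% of all tested genes). None of the 12 was too low to be tested, and apart from MRC1 and CSF1R they are named after their values were seen. Unlike these medians, the log2FC of the C1q chains was -0.05 to -0.29 in DOP vs. C and -0.74 to -0.99 in WCOC vs. DOP. Single markers also differed from the medians. CD163 and MRC1 lay closer to the C1q chains, with 0.137 and -0.184 in DOP vs. C and -1.296 and -1.004 in WCOC vs. DOP. MSR1 and SIGLEC1 were among the 5 markers higher in WCOC than in DOP (0.498 and 1.08). In DOP vs. C these 2 had -3.179 and -1.127. The medians therefore do not stand for every marker of the list. The part of macrophage content in the C3 and C1q values was not tested.

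The summed neutrophil markers, led by S100A12, ran from 23.7 to 92.5 CPM for C, 25.2 to 50.4 CPM for DOP and 13.7 to 65.7 CPM for WCOC, and 0 of 4 tested were called by edgeR (1 with an unadjusted p under 0.05 against C for either olive diet). T cell markers, led by CD4, ran from 4.03 to 31.9 CPM, and 0 of 6 had even an unadjusted p under 0.05. Of 5 B cell markers, 1 was high enough to be tested. Endothelial markers, led by PECAM1, ran from 817 to 1437 CPM, and 1 of 5, CLDN5, was called higher in WCOC vs. C (2.33% of all tested genes). The liver is the main source of plasma complement, and liver markers, led by APOA1, ran from 126 to 239 CPM with 0 of 3 tested called by edgeR (0 in DOP vs. C and 1 in either comparison of WCOC with an unadjusted p under 0.05). Fibroblast and adipose progenitor markers, led by COL3A1, reached 19660 to 28970 CPM for C, 17460 to 26920 CPM for DOP and 13360 to 22140 CPM for WCOC. Of these 8 markers, 2 were called lower in WCOC vs. C (LUM and COL1A1, beside 3.93% of all tested genes) and 2 in WCOC vs. DOP (PDGFRA and LUM, beside 5.11%). Adipocyte markers ran from 12570 to 16720 CPM for C, 15180 to 19770 CPM for DOP and 15590 to 22070 CPM for WCOC. Against C 6 of 8 were higher in WCOC with a median log2FC of 0.42, and ADIPOQ was called higher (log2FC 0.66, edgeR adjusted p = 0.0281, beside 2.33% of all tested genes). In WCOC vs. DOP 6 of 8 were higher, and LEP and PLIN4 were called (2.65% of all tested genes). CLDN5, LUM, COL1A1, PDGFRA, LEP and PLIN4 are named after their values were seen. Their part in the results was not tested.

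A list of 48 further complement genes was read in the same fit. Of these, 34 were matched by symbol and 23 were tested. With DOP 2 were called against C, both lower, and with WCOC 6, all lower. Between the olive diets 1 was called lower and 1 higher in WCOC. The median log2FC of the 23 was -0.18, -0.29 and -0.12. Among all tested genes 0.55% were called lower in DOP vs. C and 3.93% in WCOC vs. C, while 5.11% were called lower and 2.65% higher in WCOC vs. DOP. Part of the list, such as CLU, ITGAM and ITGB2, is among the genes the study selected on these samples, so their direction is not independent evidence.

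Among the classical pathway genes C4A, a precursor cleaved once C1q has bound its target, fell under WCOC (55.9 ± 18.9 against 146 ± 83.2 CPM, log2FC -1.39, edgeR adjusted p = 0.0367). In DOP it stood at 125 ± 52.9 CPM (log2FC -0.23). Among the lectin pathway genes COLEC12, a scavenger collectin, fell in WCOC vs. C (21.8 ± 7.16 against 37.9 ± 9.82 CPM, log2FC -0.80, adjusted p = 0.0417) and in WCOC vs. DOP (log2FC -0.85, adjusted p = 0.0303). With 1 library of the comparison left out in turn, the C4A call held in 3 of 10 fits and each COLEC12 call in 3 of 10. Both WCOC vs. C calls were also lost with flow cell as a covariate, within flow cell A and in the libraries low in muscle markers, as limma-voom lost that of C4A, and C4A held in 6 and COLEC12 in 5 of 11 other settings. The COLEC12 call between the olive diets held in 7 of 10 other settings and was lost in the libraries low in muscle markers. It was also lost with flow cell as a covariate, where C 5 alone links the flow cells and diet is not separated from flow cell.

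Among the regulators CLU, which encodes clusterin, an inhibitor of the membrane attack complex, fell the most. It stood at 44.9, 57.5, 203, 63.1 and 147 CPM in C 1 to C 5, at 24.0 to 41.1 CPM in DOP and at 18.7 to 40.5 CPM in WCOC, so that every C pig was above every pig of the olive diets, with C 3 and C 5 again the highest. Its log2FC was -1.97 in WCOC vs. C (SE 0.39, edgeR adjusted p = 0.00744), a call that held in 10 of 10 fits with a library left out and in the 11 other settings. For DOP the log2FC against C was -1.72 (SE 0.38, adjusted p = 0.0484), a call that held in 2 of 10 such fits and in 4 of 10 other settings. It was lost without the filter on low counts, in limma-voom, with only the diets compared, with flow cell as a covariate and in the libraries low in muscle markers.

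VTN, which encodes vitronectin, another inhibitor of the membrane attack complex, went the other way. It stood at 7.53 to 10.6 CPM in WCOC and at 4.36 to 6.11 CPM in DOP without overlap, and at 5.50 to 7.58 CPM in C. It rose in WCOC vs. DOP (log2FC 0.81, SE 0.14, edgeR adjusted p = 0.00412), in 10 of 10 fits with a library left out. The call was lost in the libraries low in muscle markers. It was also lost with flow cell as a covariate, where C 5 alone links the flow cells and diet is not separated from flow cell. In WCOC vs. C its log2FC of 0.47 was under the limit of size.

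Among the receptors, ITGB2 and ITGAM encode the subunits of complement receptor 3 and VSIG4 encodes a receptor of C3b on resident macrophages. ITGB2 fell in DOP vs. C (16.3 ± 7.32 against 61.3 ± 35.2 CPM, log2FC -1.91, edgeR adjusted p = 0.0421) and in WCOC vs. C (19.3 ± 6.62 CPM, log2FC -1.67, adjusted p = 0.0175). ITGAM fell in WCOC vs. C (19.3 ± 5.90 against 51.6 ± 29.6 CPM, log2FC -1.42, adjusted p = 0.0250) and had a log2FC of -1.41 in DOP vs. C without passing the test (adjusted p = 0.0780). VSIG4 fell in WCOC vs. C (4.03 ± 2.61 against 11.6 ± 6.33 CPM, log2FC -1.53, adjusted p = 0.0389). C 3 and C 5 were the highest pigs for ITGB2 (94.5 and 104 CPM) and ITGAM (67.8 and 96.2 CPM). The calls held in 3 of 10 fits with a library left out for ITGB2 in DOP vs. C, 9 of 10 for ITGB2 in WCOC vs. C, 5 of 10 for ITGAM and 4 of 10 for VSIG4. With flow cell as a covariate, within flow cell A and in the libraries low in muscle markers the calls of ITGAM and VSIG4 were lost, and that of VSIG4 also with only the diets compared. The ITGB2 call in WCOC vs. C was lost within flow cell A, and that in DOP vs. C in limma-voom, with only the diets compared and in the libraries low in muscle markers.

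The remaining 16 tested genes of the list were called in no comparison. They include C5, the 1 tested gene of the terminal pathway, at 6.47 ± 1.79 CPM with the control feed, 6.99 ± 1.44 with DOP and 10.2 ± 2.86 with WCOC (SD, n = 5, WCOC vs. C log2FC 0.66, edgeR adjusted p = 0.0718). The other terminal genes C6, C8A, C8B and C9 had at most 4 counts in a library. PTX3, also uncalled, stood at 12.4 ± 4.16 CPM in DOP against 5.96 ± 1.39 in C (log2FC 1.06, edgeR adjusted p = 0.0980). In WCOC it stood at 10.3 ± 4.87 CPM (WCOC vs. C log2FC 0.79, edgeR adjusted p = 0.101). The study reported PTX3 as activated in DOP. C5, PTX3 and the terminal genes are named after their values were seen.

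**Figure D5:**
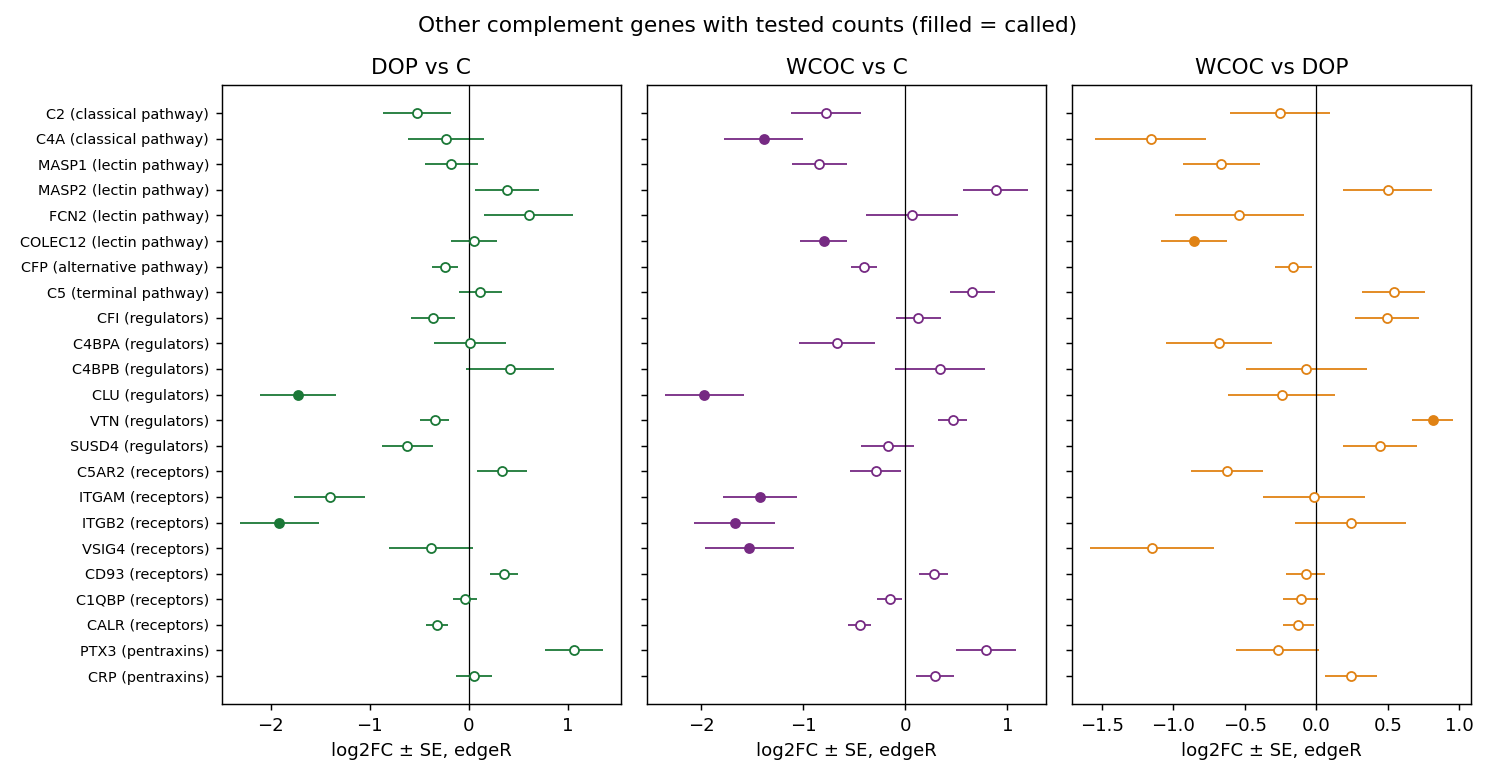
log2FC and SE of the 23 tested genes of the further complement list in the 3 comparisons (edgeR), ordered by role. Filled points were called: CLU and ITGB2 in DOP vs. C, C4A, COLEC12, CLU, ITGAM, ITGB2 and VSIG4 in WCOC vs. C, and COLEC12 and VTN in WCOC vs. DOP, where VTN alone is higher.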

How the data were processed

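RNA-seq libraries of backfat from 15 pigs were analysed. Per the submitters' processing notes and the study's methods, the authors checked reads with FastQC, aligned untrimmed pairs to Sscrofa11.1 with HISAT2 using a strand setting, and counted them with HTSeq. The values the authors deposited are raw counts per Ensembl gene, 1 file per pig. Which annotation release was counted, and with which strand option, is not given in the sources used here. The 5 summary lines of each file (23.4% to 32.8% of a library) stayed out of library sizes and tests.

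The counts were tested with edgeR 4.0.16 (R 4.3.3): filterByExpr, TMM scaling, and a two-sided quasi-likelihood test with 1 mean per diet over all 15 libraries, whose diets come from the labels. CPM and log2 CPM (prior count 1) were computed here. Alternatives were DESeq2 1.42.0 (the study's tool) and its size factors, limma-voom (limma 3.58.1), other filters, only the diets compared, no limit on log2FC, a replicate block, flow cell as a term of the model or flow cell A alone, each library left out, and, after seeing the data, only libraries under 1000 CPM of muscle markers. The workflow was tested on simulated data. Positions, lengths and promoters were read from RefSeq's Sscrofa11.1 annotation with Python 3.11.15. The motifs were settled after the windows had been searched: an NF-kB motif, which matched in the C1QB window, and a longer interferon motif, which matched in none, are not shown. Of 48 further complement symbols, 14 had no match and were not analysed here.

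Members and lists were chosen with earlier results of these data known. Named are the 9 genes, list genes called in at least 1 comparison, the 3 tested genes most alike to each (at least 1 CPM on average) and each marker list's most abundant member. Some genes that this rule names are not reported here.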

Additional observations from a re-analysis of the deposited data

Results flagged for a closer look

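VSIG4 in WCOC 2 stood at 8.57 CPM, while the other 4 WCOC libraries stood between 2.23 and 3.72 CPM, and its gap to the nearest of them took 0.765 of the range of the group. It was the 1 such library among 45 groups of 5 examined, where chance alone gives about 1 in 20 groups. COLEC12 and VTN differed between the olive diets, tested directly in WCOC vs. DOP: the log2FC was -0.85 for COLEC12 and 0.81 for VTN. Both comparisons set flow cell A against flow cell B. Neither call held with flow cell as a covariate. In that fit C 5 alone links the flow cells, so the loss does not separate diet from flow cell.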

How the results depend on the processing

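The numbers of complement genes called among the 9 were 1 in DOP vs. C, 1 in WCOC vs. C and 0 in WCOC vs. DOP, and those of the further list 2, 6 and 2. With a library left out in turn they ran from 0 to 1, 0 to 4 and 0 to 3 for the 9, and from 0 to 2, 1 to 8 and 1 to 4 for the list, and in both comparisons of WCOC the highest number came without WCOC 2. DESeq2 gave 4 of the 9 in WCOC vs. C and 1 in WCOC vs. DOP, and 4 of the list in DOP vs. C and in WCOC vs. DOP. limma-voom gave 0 of the 9 and 0 of the list in DOP vs. C and 2 of the 9 in WCOC vs. C. With only the diets compared, DOP vs. C gave 0 and 0. Without the filter 1 of the list was called in DOP vs. C. With flow cell as a covariate, WCOC vs. C gave 0 of the 9 and 2 of the list and WCOC vs. DOP 0 of the list, and flow cell A alone gave 0 and 1 in WCOC vs. C. In the libraries low in muscle markers, DOP vs. C gave 0 and 0, WCOC vs. C 0 and 2, and WCOC vs. DOP 0 of the list. The fits of flow cell A, of the libraries low in muscle markers (chosen after seeing the data), of only the diets compared and with a library left out hold fewer libraries, and for the rest the cause was not tested. Size factors of DESeq2, at least 10 counts in every library and no limit on log2FC left all 6 numbers within 1.5 times. For these alternatives the share of all tested genes called is not given here.

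With replicate number as a block, DOP vs. C gave 0 of the 9 and 0 of the list, WCOC vs. C 0 and 1 (CLU), and WCOC vs. DOP 1 of the list (VTN). Libraries with the same number shared only a number: of 15 pairs, 3 had a correlation over 0.1 (-0.495 to 0.345), and 1 of 15 libraries correlated best with its own number.

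Signs turned only where a gene was not called. In DOP vs. C, C7 had a log2FC of 0.0015 with at least 10 counts in every library, 0.24 in limma-voom, 0.0695 with the replicate block and 0.20 in the libraries low in muscle markers, where C1QA had 0.35, C1QC 0.19 and CFB 0.0089. With flow cell as a covariate CFB had 0.37 in DOP vs. C, and C1QC 0.21 and C3AR1 0.61 in WCOC vs. DOP. C3 in WCOC vs. DOP had -0.0851 in the libraries low in muscle markers. With a library left out, the log2FC in DOP vs. C ran from -0.26 to 0.13 for C1QA, -0.34 to 0.11 for C1QC, -0.78 to 0.13 for CFB and -0.24 to 0.37 for C7, and that of SERPING1 in WCOC vs. C from -0.0747 to 0.18. Depth limits C7 and C3AR1 most, at 30 to 175 and 39 to 266 counts in a library.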
